A study of Mus musculus with 16 samples.

Results

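The 8 genes described here belong to the crypt progenitor programme of the mouse small intestine: the Wnt targets Myc, Cd44 and Sox9, the receptors Ephb2, Ephb3 and Ephb4, and the ephrin ligands Efnb1 and Efnb2. They were taken by name, each from every probe set annotated with that single symbol. Of the 8 genes, 7 were measured, each by 1 probe set, and Ephb2 was not analysed here because no probe set carried its symbol alone. All 7 were among the 18095 genes bright enough to be tested, out of 22180 genes with a probe set of their own.

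In the intestinal crypt, Wnt signals from the surrounding stroma keep progenitor cells dividing by stabilising beta-catenin, which binds TCF/LEF factors at its target genes. Apc belongs to the complex that degrades beta-catenin, and intestinal adenomas of Apc mutant mice arise after loss of its function. EphB receptors are Wnt targets of the crypt base, while their membrane-bound ligands, the B-type ephrins, are made mainly by differentiated cells towards the villus, and repulsion between both keeps the cell populations apart.

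Microarrays measured small intestinal cells of C57Bl/6 mice aged 8 to 10 weeks, all labelled male. The groups were Apc+/1638N adenoma cells (4 animals, P21, P23, P34 and P36, on 6 arrays), wild-type fibroblasts, labelled myofibroblasts, in co-culture and in monoculture (3 animals each, Pl_I, Pl_II and Pl_III), and wild-type epithelial organoids in co-culture and in monoculture (2 animals each, P28 and P30). Co-culture lasted 24 h with the cell types kept apart by an insert with 0.4 µm pores. The titles of adenoma animals P21 and P23 carry the tag T2, whose meaning the labels do not give. The Apc+/1638N allele was present throughout the adenoma animals and in no other group, the labels give no culture protocol specific to the adenoma cells, and genotype, culture and lesion cannot be told apart in comparisons with them.

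Array medians lay between 3.48 and 3.58 on the log2 scale, and the precision is limited by how few arrays there are. The labelled cell types matched their markers: the mean level of 12 epithelial markers was 9.64 to 10.81 in adenoma samples, 3.20 to 3.65 in fibroblast samples and 10.70 to 11.18 in epithelium samples. The fibroblast samples also carried 10 immune markers at a mean level of 8.34 to 9.27, against 3.83 to 4.27 in all other samples. Against the label male, the 4 samples of animals P28 and Pl_III had Xist at 7.57 to 8.29 and the Y-linked Eif2s3y at 2.53 to 3.20, whereas the other 10 samples had Xist at no more than 2.81 and Eif2s3y at 7.37 or higher. The title of 1 fibroblast monoculture array gives animal Pl_III and its source label Pl_II, and it was taken as Pl_III. In bulk samples such as these, fewer cells of a type and less RNA per cell cannot be told apart.

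**Figure D1:**
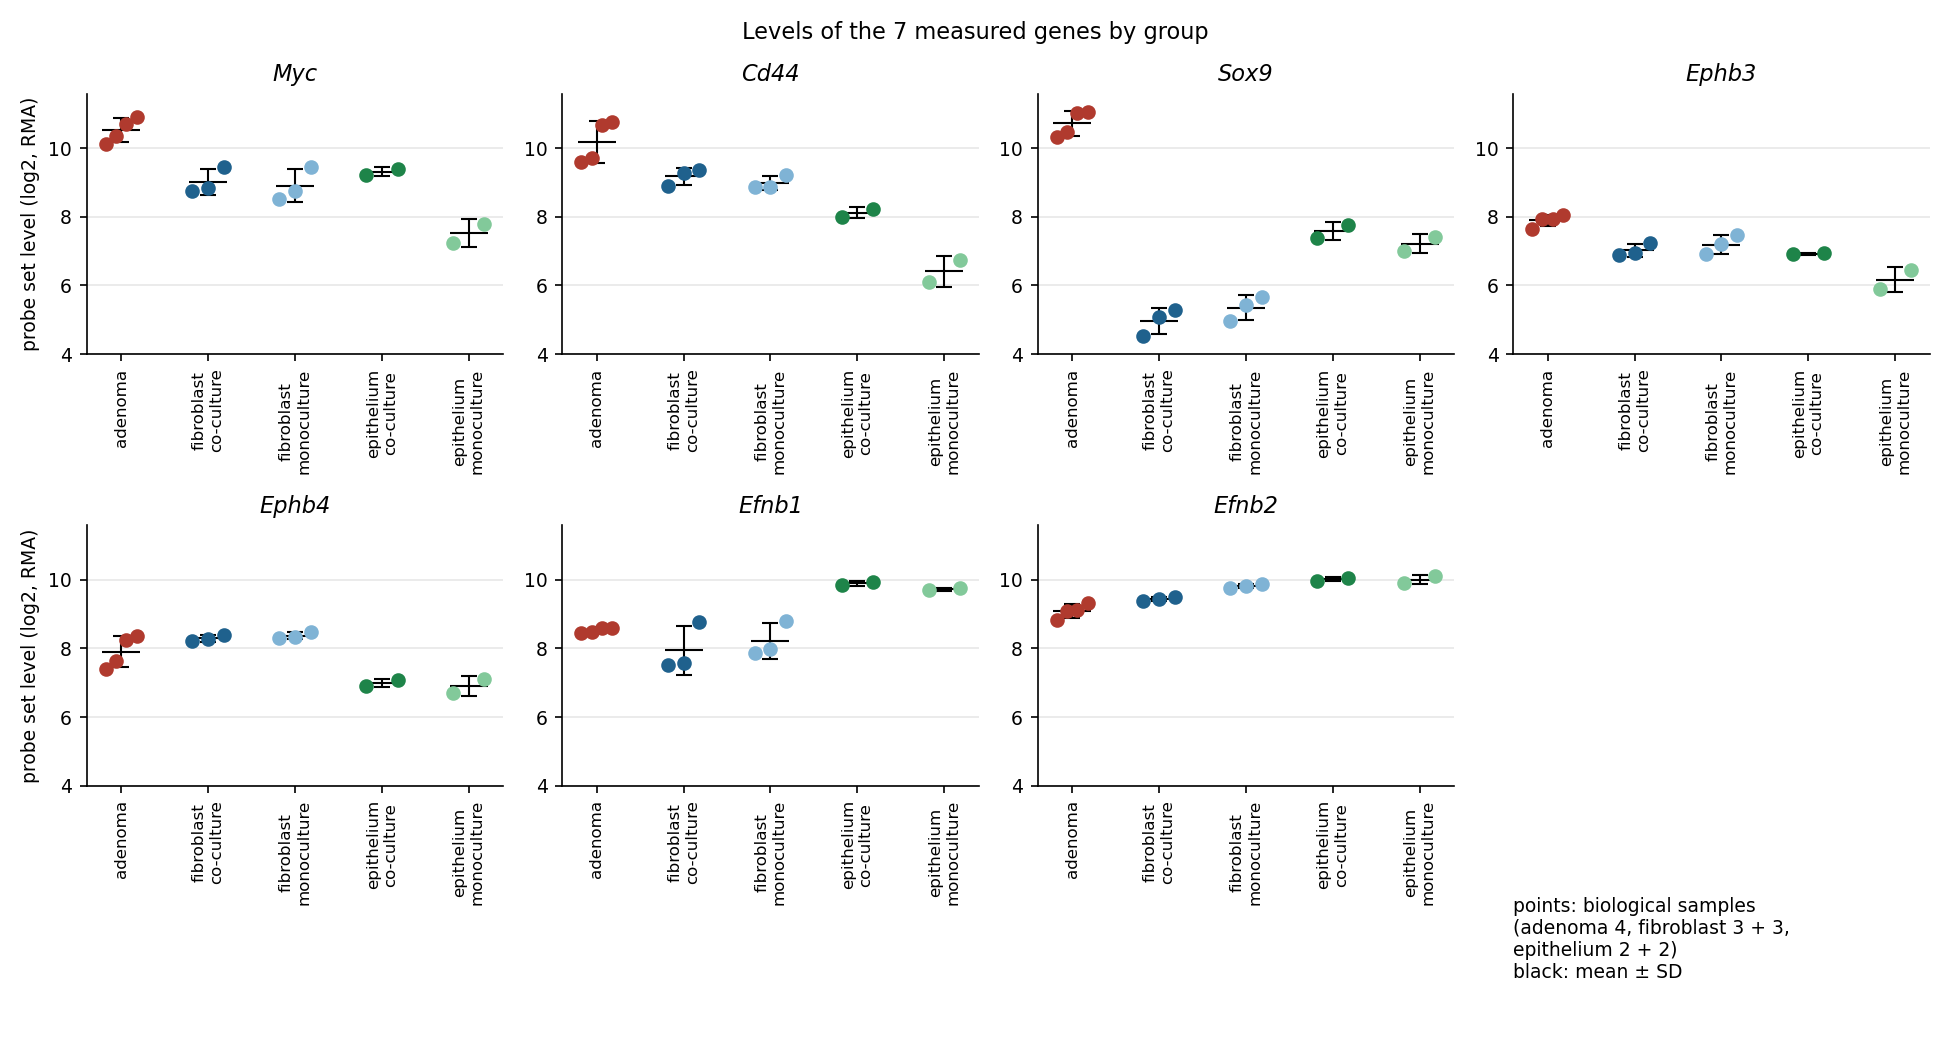
Level of each measured gene (y axis, log2, RMA) in the 5 groups, with 1 point per biological sample and black marks for the mean ± SD. Myc, Cd44, Sox9 and Ephb3 sat highest in the 4 adenoma samples, which overlapped no other group, while Efnb1 and Efnb2 were lower in all adenoma samples than in all epithelium samples.

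Myc (probe set 17311846) encodes the transcription factor that drives cell growth and ribosome production in dividing crypt cells. Its log2 level was 10.91, 10.71, 10.37 and 10.13 in adenoma animals P21, P23, P34 and P36. In fibroblasts of animals Pl_I, Pl_II and Pl_III it was 8.76, 9.45 and 8.84 in co-culture, against 8.75, 9.45 and 8.52 in monoculture. In epithelium of animals P28 and P30 it was 9.23 and 9.41 in co-culture, against 7.23 and 7.81 in monoculture. Every adenoma sample was thus above every other sample, monocultured epithelium was below all others, and co-cultured epithelium lay among the fibroblast samples.

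Cd44 (probe set 17388733) encodes the surface receptor for hyaluronan found on crypt base cells. Its level was 10.76, 10.69, 9.73 and 9.60 in the adenoma animals in the same order. It was 9.36, 9.28 and 8.91 in co-cultured fibroblasts, against 9.21, 8.87 and 8.86 in monocultured fibroblasts. It was 8.23 and 8.01 in co-cultured epithelium, against 6.10 and 6.73 in monocultured epithelium. The groups followed one another from adenoma cells through fibroblasts to co-cultured and then monocultured epithelium, and only both fibroblast groups overlapped.

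Sox9 (probe set 17257946) encodes a transcription factor of crypt progenitors and Paneth cells. Its level was 11.07, 11.02, 10.33 and 10.48 in adenoma cells. It was 4.53, 5.08 and 5.27 in co-cultured fibroblasts, against 4.97, 5.42 and 5.67 in monocultured fibroblasts. It was 7.76 and 7.39 in co-cultured epithelium, against 7.02 and 7.41 in monocultured epithelium. Sox9 therefore separated the cell types: adenoma cells were above epithelium and epithelium above fibroblasts with no overlap, while co-culture and monoculture of the same cell type overlapped.

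Ephb3 (probe set 17324163), the receptor that helps to hold Paneth cells at the crypt base, spanned a narrower range. Its level was 7.94, 7.65, 8.06 and 7.93 in adenoma cells. It was 6.96, 6.89 and 7.25 in co-cultured fibroblasts, against 7.20, 6.91 and 7.47 in monocultured fibroblasts. It was 6.95 and 6.91 in co-cultured epithelium, against 5.91 and 6.44 in monocultured epithelium. Adenoma cells were highest and monocultured epithelium lowest, each without overlap, and the 3 groups between them overlapped.

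Ephb4 (probe set 17443539), best known as the ephrin-B2 receptor of veins, was the only measured gene of the 7 whose mean was highest in fibroblasts. Its level was 8.36, 8.24, 7.63 and 7.41 in adenoma cells. It was 8.20, 8.28 and 8.39 in co-cultured fibroblasts, against 8.48, 8.31 and 8.35 in monocultured fibroblasts. It was 6.92 and 7.07 in co-cultured epithelium, against 6.69 and 7.10 in monocultured epithelium. Adenoma animals P21 and P23 lay within the fibroblast range, P34 and P36 lay below all fibroblast samples, and every epithelium sample was lower still. The mean level of 10 endothelial markers was between 2.81 and 3.43 in all 14 samples, close to the level of 2.67 below which genes were left untested. Single markers differed from this mean, and Tek spanned 3.35 to 6.56 over the adenoma samples. In limma's test against monocultured epithelium, described below, 2 of the 9 markers tested were called higher in adenoma cells and 3 lower. Over all genes tested, 22.5% were called higher and 18.5% lower. The part of endothelial cells in the Ephb4 levels was not tested.

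Efnb1 (probe set 17536483) encodes ephrin-B1, a transmembrane ligand for EphB receptors. Its level was 8.61, 8.60, 8.46 and 8.49 in adenoma cells. It was 7.57, 7.51 and 8.77 in co-cultured fibroblasts, against 7.99, 7.86 and 8.81 in monocultured fibroblasts. It was 9.85 and 9.95 in co-cultured epithelium, against 9.76 and 9.70 in monocultured epithelium. Co-cultured epithelium was highest and monocultured epithelium next, both without overlap, and the adenoma samples fell inside the fibroblast range, which animal Pl_III stretched upward in both cultures. Efnb1 is X-linked, and Pl_III and P28 are the animals with high Xist. In epithelium, its levels in P28 and P30 are those given above. The part of sex in the Efnb1 levels was not tested.

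Efnb2 (probe set 17507321), the ligand known from arterial endothelium, varied least between groups. Its level was 9.09, 9.32, 9.12 and 8.84 in adenoma cells. It was 9.38, 9.46 and 9.50 in co-cultured fibroblasts, against 9.87, 9.82 and 9.76 in monocultured fibroblasts. It was 10.06 and 9.98 in co-cultured epithelium, against 9.91 and 10.10 in monocultured epithelium. Adenoma cells were lowest, co-cultured fibroblasts next and monocultured fibroblasts above those, none of them overlapping, and both epithelium groups were highest and overlapped each other.

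The question behind the adenoma comparisons is how Apc mutant tumour cells differ from normal epithelium. All 7 genes differed from monocultured epithelium in limma's test, in which a gene was called when its p, adjusted by Benjamini-Hochberg over the 18095 genes, was under 0.05: 5 were higher, where 22.5% of all genes tested were called higher, and 2 were lower, where 18.5% were called lower (4069 higher and 3353 lower, or 3469 and 3906 after cyclic loess between arrays). The 3 Wnt target genes and both receptors were the higher ones and both ephrins the lower ones. Against co-cultured epithelium the same split of 5 higher and 2 lower was found, beside 19.0% called higher and 14.3% called lower among all genes (3439 higher and 2583 lower, or 2688 and 3168 after cyclic loess). The comparisons share the adenoma samples, so their values are given side by side and are not independent.

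Cd44 stood 3.78 ± 0.33 (difference in log2 level ± SE) above monocultured epithelium, a 13.7-fold difference with a 95% interval of 8.35 to 22.6 (limma, adjusted p = 2.5e-06), and 2.07 ± 0.33 above co-cultured epithelium (adjusted p = 4.6e-04). Sox9 stood 3.51 ± 0.28 above monocultured epithelium, or 11.4-fold with an interval of 7.45 to 17.5 (adjusted p = 1.3e-06), and 3.15 ± 0.28 above co-cultured epithelium (adjusted p = 6.4e-06). Myc stood 3.01 ± 0.30 above monocultured epithelium, or 8.06-fold with an interval of 5.11 to 12.7 (adjusted p = 7.7e-06), and 1.21 ± 0.30 above co-cultured epithelium (adjusted p = 0.0082). The distance to co-cultured epithelium was thus much shorter for Myc and Cd44 than the distance to monocultured epithelium, and nearly the same for Sox9. Without the co-culture sample of P28, Myc stood 1.12 above co-cultured epithelium with an adjusted p of 0.076 in limma (0.082 without animals P28 and Pl_III), and without the adenoma animals titled T2 it stood 0.93 above it (adjusted p = 0.059).

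Among the receptors, Ephb3 stood 1.72 ± 0.19 above monocultured epithelium (3.30-fold, limma adjusted p = 1.9e-05) and 0.97 ± 0.19 above co-cultured epithelium (adjusted p = 0.0022). Ephb4 stood 1.01 ± 0.24 above monocultured epithelium (2.02-fold, adjusted p = 0.0045) and 0.91 ± 0.24 above co-cultured epithelium (adjusted p = 0.011). Both receptors were higher in 4 of 4 adenoma samples than in any epithelium sample. Without animals P28 and Pl_III, the Ephb4 difference was 0.81 from monocultured epithelium (limma adjusted p = 0.13) and 0.84 from co-cultured epithelium (adjusted p = 0.14). The calls were also lost without the sample of P28 alone (adjusted p = 0.070 and 0.093), and in a fit on adenoma and co-cultured epithelium alone (0.055).

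Efnb1 and Efnb2 ran the other way. Efnb1 was lower than in monocultured epithelium by -1.19 ± 0.33 (0.44-fold, limma adjusted p = 0.012) and than in co-cultured epithelium by -1.36 ± 0.33 (adjusted p = 0.0071). Efnb2 differed by -0.92 ± 0.13 (0.53-fold, adjusted p = 1.3e-04) and by -0.93 ± 0.13 (adjusted p = 2.2e-04) from the same groups. Both ephrins were lower in 4 of 4 adenoma samples than in any epithelium sample. The Efnb1 call was lost when either monocultured epithelium sample was left out, with limma adjusted p-values of 0.074 (P28) and 0.057 (P30), or both adenoma animals without the T2 tag (0.054), and against co-cultured epithelium without P30 (0.056).

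**Figure D2:**
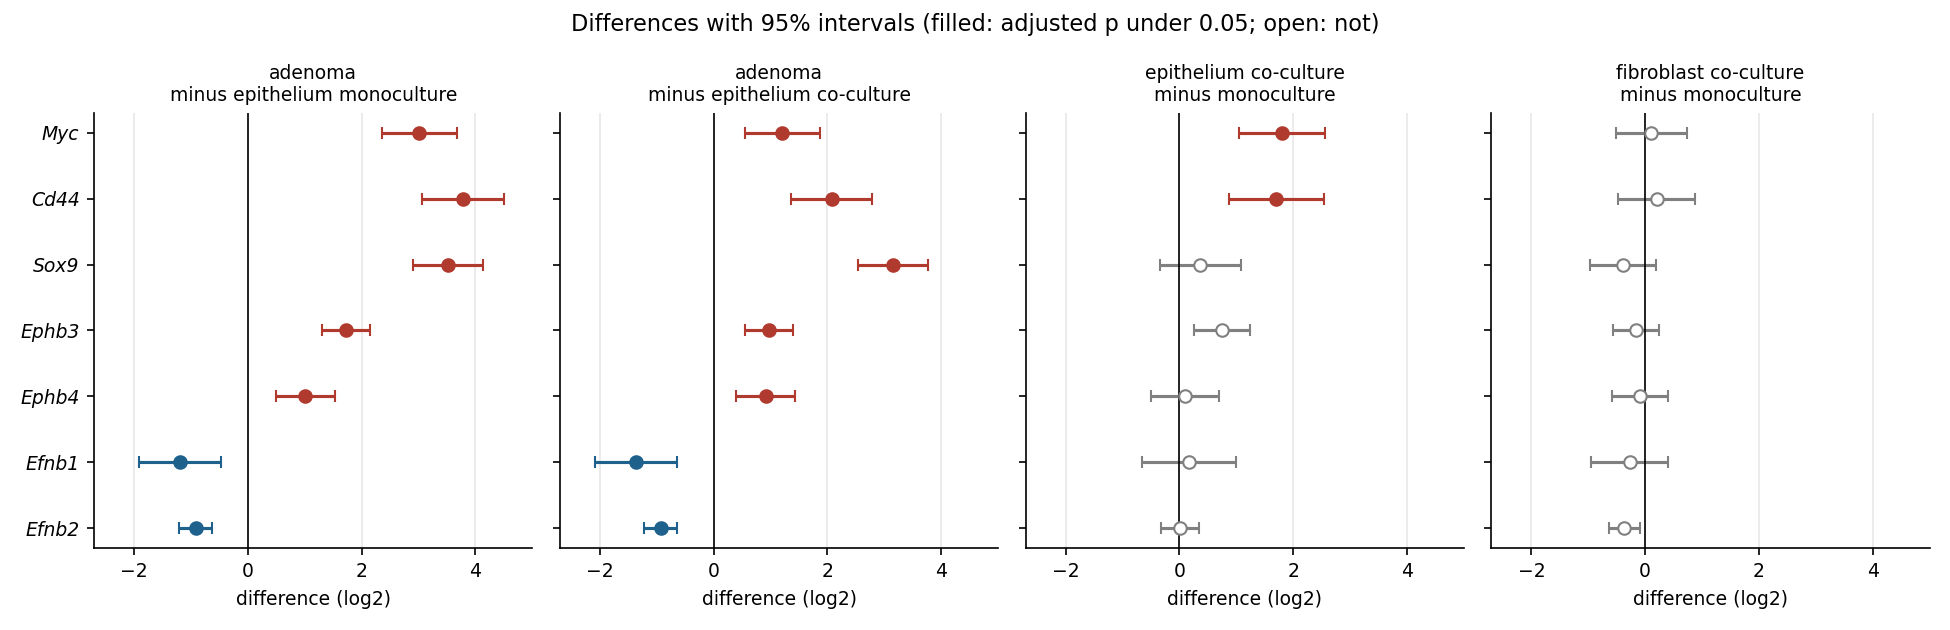
Differences in log2 level (x axis) with 95% intervals for the 7 measured genes in 4 comparisons. Filled points passed an adjusted p under 0.05 in limma and open points did not. The 3 Wnt targets and both Ephb receptors lie right of 0 and both ephrins left of 0 in the adenoma panels, while only Myc and Cd44 are filled in co-cultured epithelium and none in co-cultured fibroblasts.

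Markers of cell state moved with these differences. Over all genes, 22.5% were called higher and 18.5% lower against monocultured epithelium, and 19.0% and 14.3% against co-cultured epithelium. The enterocyte list, markers of absorptive villus cells, was lower in adenoma cells for 10 of 10 genes against either epithelium group, with mean levels of 4.14 to 4.55 in adenoma samples, against 11.51 to 11.61 in co-cultured and 11.93 to 11.98 in monocultured epithelium. The proliferation list was higher for 10 of 11 genes against either group, with mean levels of 9.56 to 9.82 in adenoma samples, against 7.54 to 7.95 and 5.97 to 6.55. The Paneth cell list was lower for 4 of 7 genes and higher for 0 against either group. Its mean levels were 3.37 to 8.29 in adenoma samples, against 8.93 to 9.20 in co-cultured and 9.08 to 9.27 in monocultured epithelium. The part of any of these lists in the results was not tested. Fibroblast markers were at 2.89 to 3.39 in adenoma samples, against 3.14 to 3.40 in epithelium samples, near the untested floor in both.

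The promoters of Ephb4, Efnb1 and Efnb2 are shown because this receptor and these ligands moved in opposite directions in adenoma cells. Each window runs from 250 bases before to 50 bases after the start of the gene in RefSeq (GRCm38.p6), 5′ to 3′ on the strand of the gene, and capitals mark CCAAT boxes (CCAAT, or ATTGG where the box is on the other strand). The windows are Ephb4 at chr5:137349859-137350158 (plus strand), Efnb1 at chrX:99135811-99136110 (plus strand) and Efnb2 at chr8:8661193-8661492 (minus strand).
Ephb4: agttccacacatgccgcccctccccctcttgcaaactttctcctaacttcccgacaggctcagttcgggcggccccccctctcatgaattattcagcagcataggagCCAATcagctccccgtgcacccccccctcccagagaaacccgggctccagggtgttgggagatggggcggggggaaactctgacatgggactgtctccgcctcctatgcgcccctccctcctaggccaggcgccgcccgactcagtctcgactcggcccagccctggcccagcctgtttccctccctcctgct
Efnb1: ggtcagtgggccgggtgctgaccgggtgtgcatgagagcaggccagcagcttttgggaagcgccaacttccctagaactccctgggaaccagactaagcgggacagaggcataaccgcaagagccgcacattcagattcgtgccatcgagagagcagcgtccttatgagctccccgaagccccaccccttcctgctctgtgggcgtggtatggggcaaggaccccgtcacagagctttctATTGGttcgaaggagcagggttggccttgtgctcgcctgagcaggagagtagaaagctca
Efnb2: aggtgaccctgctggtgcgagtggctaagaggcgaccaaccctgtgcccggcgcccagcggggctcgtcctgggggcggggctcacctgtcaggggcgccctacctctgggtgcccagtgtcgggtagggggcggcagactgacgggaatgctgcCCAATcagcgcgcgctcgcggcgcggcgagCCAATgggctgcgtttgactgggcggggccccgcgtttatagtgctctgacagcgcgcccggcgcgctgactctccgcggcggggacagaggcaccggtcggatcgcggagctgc
Of the 8 listed genes, 6 had a window of this length, and those of Cd44, Ephb2 and Ephb3 are placed around a start that lies inside the bounds RefSeq gives the gene. A TCF/LEF core (CTTTG followed by AA, AT, TA or TT, on either strand) was found in 0 of the 6 and in 16.9% of all 32851 windows. CCAAT was found in 4 of the 6, against 37.4% of all windows, and the GC box GGGCGG in 4, against 35.7%. The windows of Ephb4 and Efnb1 hold 1 CCAAT box each and that of Efnb2 holds 2. Those of Cd44 and Ephb3, whose levels were higher in adenoma cells, hold none, and that of the unmeasured Ephb2 holds 1. The part of the box in the levels was not tested. A TATAAA motif was found in 1 of the 6 (Efnb2), against 13.6% of all windows. The Myc E-box CACGTG was found in 0 of the 6, against 7.15% of all windows. The windows are rich in G and C, at 64.7% in Ephb4, 59.7% in Efnb1 and 72.3% in Efnb2, where the median window has 52.7%.

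The co-culture comparison asks what soluble material from the other cell type does to each. In epithelium, Myc and Cd44 rose: 2 of the 7 genes were called higher and none lower, where 2.71% of all genes were. Myc was 1.80 ± 0.35 higher in co-culture than in monoculture (3.48-fold with an interval of 2.06 to 5.91, limma adjusted p = 0.016), by 2.00 in animal P28 and 1.60 in animal P30. Cd44 was 1.70 ± 0.38 higher (3.26-fold with an interval of 1.84 to 5.79, adjusted p = 0.030), by 2.13 in P28 and 1.28 in P30. Both animals thus moved the same way for both genes, and more in P28.

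Ephb3 was 0.75 ± 0.22 higher in co-cultured epithelium (limma adjusted p = 0.092), by 1.04 in P28 and 0.47 in P30, and passed the threshold with the animal as a block (adjusted p = 0.036). The other measured genes were not called. Sox9 differed by 0.36 (interval -0.35 to 1.08), with 0.74 in P28 and -0.01 in P30. Ephb4 differed by 0.10 (interval -0.50 to 0.70), Efnb1 by 0.17 (interval -0.66 to 1.00) and Efnb2 by 0.01 (interval -0.32 to 0.34). At their upper bounds these intervals hold a 2.11-fold difference for Sox9, 1.63-fold for Ephb4, 2.00-fold for Efnb1 and 1.27-fold for Efnb2. The proliferation list moved with Myc and Cd44, with 3 of 11 genes called higher, where 2.71% of all genes were. Its mean levels were 7.54 and 7.95 in co-culture, against 5.97 and 6.55 in monoculture, and its part in the result was not tested.

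The calls of Myc and Cd44 in co-cultured epithelium rest on few samples. With animal P28 left out together with Pl_III, Myc was 1.60 higher (limma adjusted p = 0.24) and Cd44 1.28 higher (adjusted p = 0.45). Leaving out the co-culture sample of P28, that of P30 or the monoculture sample of P28 ended the Myc call (adjusted p = 0.075, 0.10 and 0.13 in limma), and leaving out any of the 4 epithelium samples ended the Cd44 call (0.051 to 0.22). In a fit on the compared groups alone the adjusted p was 0.059 for Myc and 0.067 for Cd44.

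In fibroblasts, co-culture moved none of the 7 genes past the threshold, where 0.00553% of all genes were called in either direction. An unadjusted p under 0.05 was reached by 1 of the 7 genes and by 513 of all genes. Efnb2 had the smallest unadjusted p of the 7, with levels of 9.38 to 9.50 in co-culture, against 9.76 to 9.87 in monoculture, a difference of -0.37 ± 0.12 (unadjusted p = 0.012 and adjusted p = 1 in limma, a model across all genes). It was lower in 3 of 3 animals, by -0.49, -0.36 and -0.25, as were Sox9 (by -0.43, -0.34 and -0.40), Ephb3 (by -0.24, -0.024 and -0.22) and Efnb1 (by -0.43, -0.35 and -0.046), none of them called. Myc differed by 0.11 (interval -0.51 to 0.73) and Cd44 by 0.20 (interval -0.47 to 0.88). The co-cultured fibroblasts overlapped the monocultured ones in 6 of the 7 genes, Efnb2 being the exception.

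Whether epithelium and fibroblasts responded differently was tested directly as the difference of both co-culture responses. None of the 7 genes was called, where 1.11% of all genes were. An unadjusted p under 0.05 was reached by 3 of the 7 genes and by 2293 of all genes. The largest difference of responses among the 7 was that of Myc, 1.69 ± 0.45 (limma adjusted p = 0.11), which passed with the animal as a block (adjusted p = 0.026). Cd44 followed with 1.50 ± 0.49 (adjusted p = 0.20) and Ephb3 with 0.92 ± 0.29 (adjusted p = 0.18). A response called in epithelium and not in fibroblasts is therefore not shown to differ between them for Myc or Cd44 in the main fit.

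**Figure D3:**
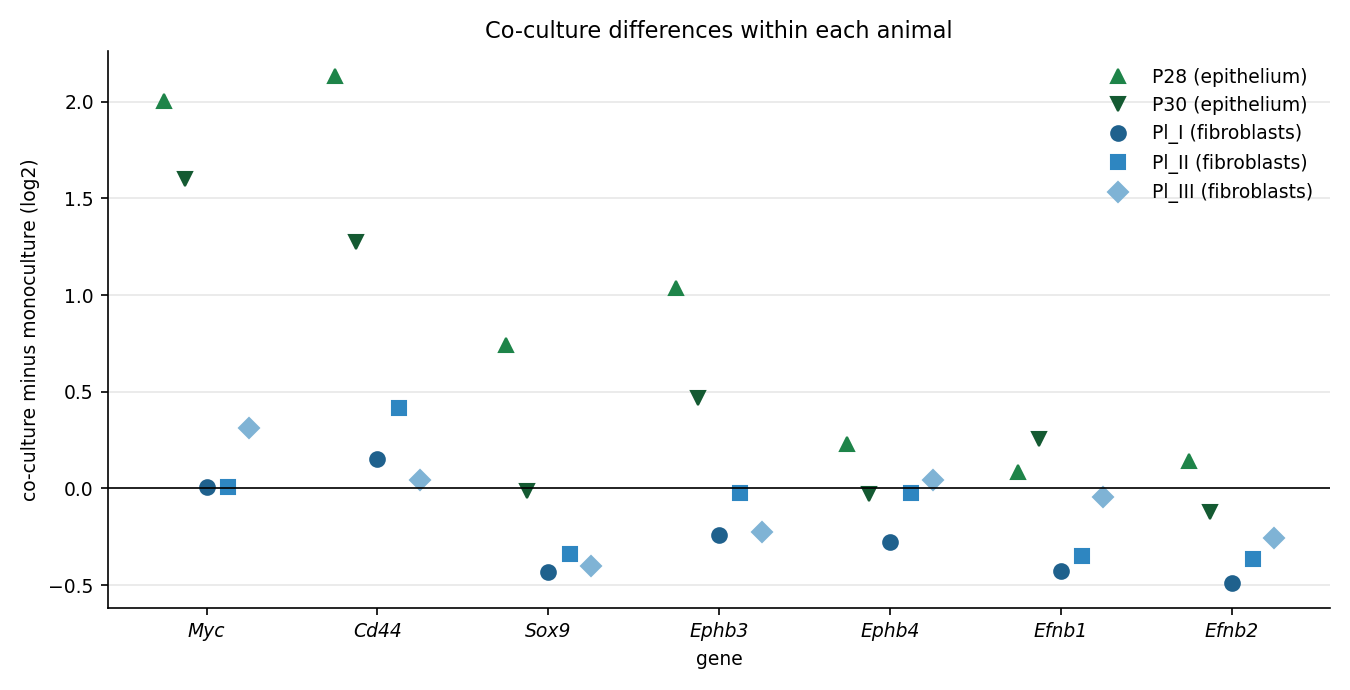
Co-culture level minus monoculture level (y axis, log2) of each gene within each animal, with triangles for epithelium (P28, P30) and the other symbols for fibroblasts (Pl_I, Pl_II, Pl_III). Both epithelium animals lie above all fibroblast animals for every gene except Ephb4, with Myc at 2.00 and 1.60, against at most 0.31. All fibroblast animals lie below 0 for Sox9, Ephb3, Efnb1 and Efnb2.

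Between the cultured cell types themselves, 4 of the 7 genes were higher in monocultured fibroblasts than in monocultured epithelium, where 26.5% of all genes were called higher, and 2 were lower, where 24.2% were called lower. Cd44 was 2.56 ± 0.35 higher (limma adjusted p = 5.3e-05), Ephb4 1.48 ± 0.25 higher (adjusted p = 3.4e-04), Myc 1.39 ± 0.32 higher (adjusted p = 0.0029) and Ephb3 1.02 ± 0.20 higher (adjusted p = 0.0011). Sox9 was lower by -1.86 ± 0.30 (adjusted p = 2.1e-04) and Efnb1 by -1.51 ± 0.35 (adjusted p = 0.0031), while Efnb2 differed by -0.19 ± 0.14 (adjusted p = 0.28). Wnt targets of the crypt did not move together between these cell types, with Myc and Cd44 higher and Sox9 lower in fibroblasts. The immune markers described above were higher in fibroblasts for 10 of 10 genes, and their part in these differences was not tested. Without animals P28 and Pl_III, Ephb3 was 0.62 higher with an adjusted p of 0.052.

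The 4 adenoma animals fell into 2 pairs for some genes, along the T2 tag of their titles. Cd44 and Ephb4 were higher in the T2 animals, and 2 of the 7 genes were called higher, where 3.65% of all genes were. Array by array, Cd44 was 10.76, 10.76 and 10.69 in the T2 animals P21 (2 arrays) and P23, against 9.68, 9.78 and 9.60 in P34 (2 arrays) and P36. Ephb4 was 8.34, 8.37 and 8.24 in the T2 animals, against 7.72, 7.53 and 7.41 in the others. The pairs did not overlap on any array for either gene, and the arrays of 1 animal differed by at most 0.19 for them.

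The difference between the pairs was 1.06 ± 0.23 for Cd44 (2.09-fold, limma adjusted p = 0.014) and 0.78 ± 0.16 for Ephb4 (1.72-fold, adjusted p = 0.012). Sox9 was 11.10, 11.05 and 11.02 in the T2 animals, against 10.47, 10.19 and 10.48 in the others, a difference of 0.64 ± 0.27 (adjusted p = 0.26). It passed when the 2 adenoma pairs were fitted alone (limma adjusted p = 0.039) and with the animal as a block (limma adjusted p = 0.043). That block covers only the epithelium and fibroblast animals, so it pairs no adenoma samples and acts here only through the shared spread. Myc was 10.92, 10.90 and 10.71 in the T2 animals, against 10.35, 10.39 and 10.13 in the others, a difference of 0.56 ± 0.32 (adjusted p = 0.46). All 4 of these genes were thus higher on every T2 array than on every other adenoma array, and 2 of them passed the test.

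Ephb3, Efnb1 and Efnb2 were not called between the pairs. Ephb3 differed by -0.20 (interval -0.69 to 0.29), Efnb1 by 0.13 (interval -0.73 to 0.99) and Efnb2 by 0.22 (interval -0.09 to 0.53). With 2 animals on each side, leaving out any 1 animal ended the Cd44 call (limma adjusted p = 0.059 to 0.11), and leaving out P21, P23 or P36 ended the Ephb4 call (0.10, 0.055 and 0.12). Over all genes, 3.65% were called higher with the tag and 3.49% lower. The Paneth cell list moved with the tag, with 5 of 7 genes called higher, none lower, and mean levels of 7.75 and 8.29 in the T2 animals, against 3.44 and 3.37 in the others. Lyz1, the Paneth cell lysozyme, was called higher and spanned 2.72 to 12.20 over the 4 adenoma samples, its low end near the untested floor. Of the epithelial list 2 of 12 genes were called higher and none lower, with mean levels of 10.75 and 10.81 in the T2 animals, against 9.85 and 9.64 in the others. Cldn3 had the widest range of that list over the 4 adenoma samples, 4.15 to 11.40, and Esrp1 the narrowest, 9.40 to 9.53. Of the enterocyte list 4 of 10 genes were called higher and 1 lower, with mean levels of 4.50 and 4.55, against 4.14 and 4.19. The part of these markers in the Cd44 and Ephb4 differences was not tested. The mean of the proliferation list was slightly higher in the T2 animals, at 9.77 and 9.82, against 9.56 and 9.69 in the others. Of its genes, 0 of 11 were called in limma and 0 had an unadjusted p under 0.05. Its part in these differences was not tested either.

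**Figure D4:**
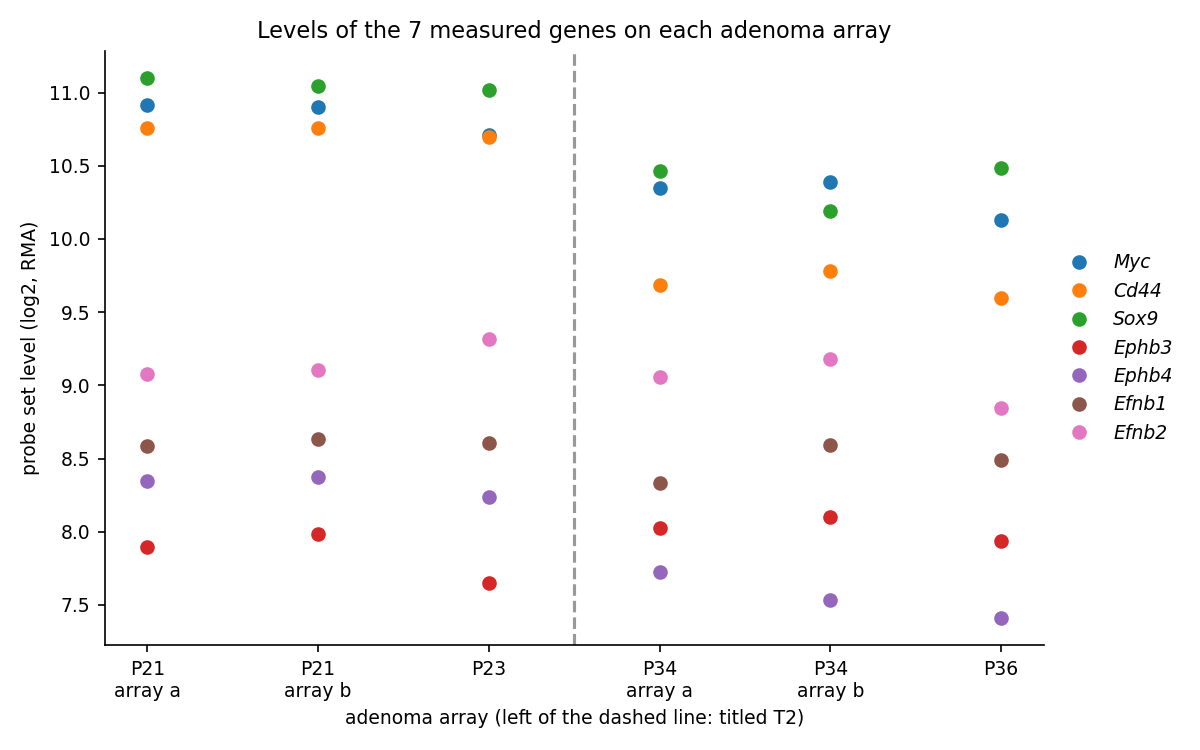
Level (y axis, log2, RMA) of the 7 measured genes on each of the 6 adenoma arrays (x axis), with the animals titled T2 left of the dashed line. Cd44, Ephb4, Sox9 and Myc are higher on all 3 T2 arrays than on the other 3. Repeated arrays differed by at most 0.087 for P21 (Ephb3) and by at most 0.28 for P34 (Sox9).

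The rest of the Eph family was read from a list of 17 other receptors and ephrins, 16 of them bright enough to be tested. Against monocultured epithelium, 6 were higher and 3 lower in adenoma cells, where 22.5% of all genes were called higher and 18.5% lower. The median difference was 0.26, against -0.028 over all genes. The ligand genes Efna5 (4.39 ± 0.52, limma adjusted p = 3.0e-05) and Efna4 (1.98 ± 0.23, adjusted p = 2.5e-05) were higher, while the receptor gene Epha1 (-2.43 ± 0.23, adjusted p = 4.3e-06) and the ligand gene Efna1 (-1.59 ± 0.24, adjusted p = 2.1e-04) were lower. The ligand genes named here thus ran both ways. Of the other B-type genes on the list, the receptor gene Ephb6 was higher (1.04 ± 0.33, adjusted p = 0.024), while the receptor gene Ephb1 differed by -0.17 ± 0.21 (adjusted p = 0.57) and the ligand gene Efnb3 by 0.10 ± 0.29 (adjusted p = 0.83), neither of them called. Efna5 averaged 3.06 in monocultured epithelium, near the untested floor, where RMA compresses values, so the size of its difference is uncertain. Against co-cultured epithelium 4 were higher and 2 lower, where 19.0% of all genes were called higher and 14.3% lower.

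In co-cultured epithelium, where 4.03% of all genes were called, Epha2, a receptor for A-type ephrins, was the 1 gene of the 16 called (1.46 ± 0.29 higher, limma adjusted p = 0.017). Epha2 also had a response that differed between epithelium and fibroblasts (1.86 ± 0.37, adjusted p = 0.041). It was 9.84 to 9.94 in co-cultured epithelium, against 8.38 to 8.48 in monocultured epithelium, and 6.49 to 6.97 in co-cultured fibroblasts, against 6.85 to 7.37 in monocultured fibroblasts. Leaving out any of the 4 epithelium samples, or animals P28 and Pl_III, ended both Epha2 calls. The fit on the compared groups alone ended the call in co-cultured epithelium, and leaving out any fibroblast sample except the monoculture of Pl_II ended that of the difference between the responses. In fibroblasts 0 of the 16 genes were called between the cultures in limma and 0 had an unadjusted p under 0.05. Between monocultured fibroblasts and monocultured epithelium 6 were higher and 4 lower, where 26.5% of all genes were called higher and 24.2% lower.

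**Figure D5:**
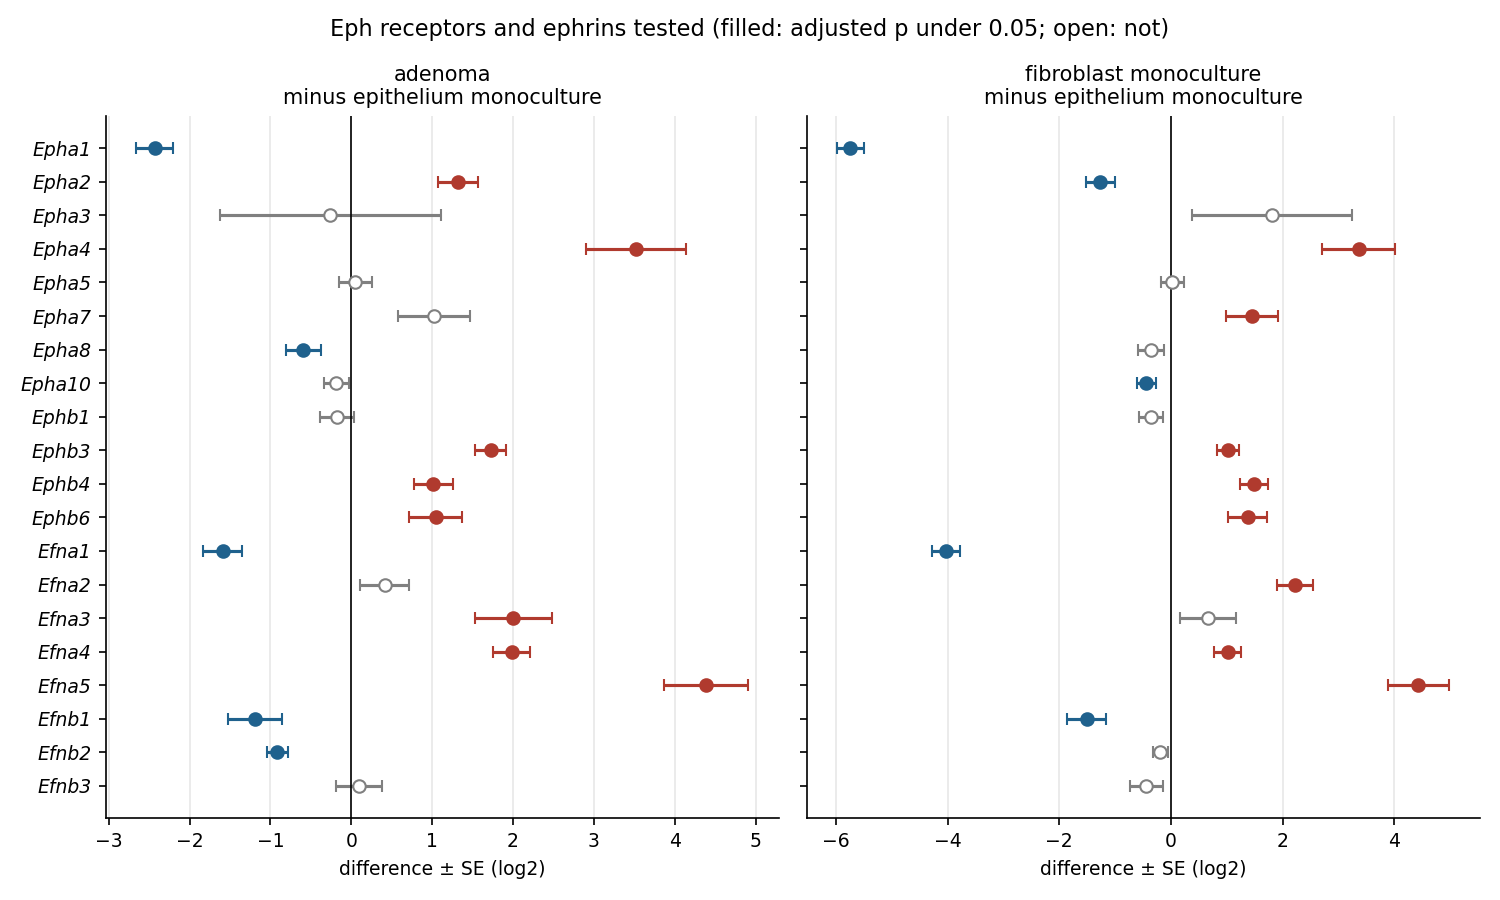
Difference in log2 level ± SE (x axis) of the Eph receptors and ephrins tested, in adenoma cells (left) and monocultured fibroblasts (right), each minus monocultured epithelium. Filled points passed an adjusted p under 0.05. Efna5 is among the highest in both panels and Epha1 the lowest in both.

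Other Wnt target genes gave the measured Wnt targets their setting. Of 23 tested, 14 were higher and 3 lower in adenoma cells than in monocultured epithelium. Over all genes, 22.5% were called higher and 18.5% lower. The median difference of the 23 was 1.94, against -0.028 over all genes. Ccnd1, the G1 cyclin (4.78 ± 0.27), Ascl2, a crypt stem cell factor (4.51 ± 0.29), and Plaur, the urokinase receptor (2.32 ± 0.22), were higher, while Cdx1, an intestinal identity factor, was lower by -4.59 ± 0.24. In co-cultured epithelium, where 2.71% of all genes were called higher, 2 of the 23 were called, Ccnd1 (3.27 ± 0.31 higher, limma adjusted p = 4.1e-04) and Plaur (1.94 ± 0.25 higher, adjusted p = 0.0020). Sox4 (0.94 ± 0.33) and Slc12a2 (0.54 ± 0.28) were not, and the median of the 23 was 0.0063. Between the adenoma pairs 8 of the 23 were higher with the T2 tag and none lower, against 3.65% and 3.49% of all genes. The 8 were led by Mmp7, a matrix protease of Paneth cells that the Paneth list also holds, Olfm4, Tnfrsf19 (1.88 ± 0.17) and Axin2 (2.14 ± 0.25). Mmp7 spanned 3.03 to 10.63 and Olfm4 2.84 to 7.16 over the 4 adenoma samples, with low ends near the untested floor.

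Of 14 tested genes that Myc is known to activate, 11 were higher and 1 lower in adenoma cells than in monocultured epithelium. Among all genes, 22.5% were called higher and 18.5% lower there. The lower gene was Ldha, lactate dehydrogenase (-0.79 ± 0.21), and the median difference was 1.92, against -0.028 over all genes. Between co-cultured and monocultured epithelium 6 were higher and none lower, against 2.71% and 1.32% of all genes. The median difference was 0.67, against -0.021 over all genes. In co-cultured epithelium these included the nucleolar protein genes Nop56 (1.25 ± 0.20, limma adjusted p = 0.0054), Gnl3 (1.00 ± 0.21, adjusted p = 0.022) and Ncl (0.67 ± 0.15, adjusted p = 0.029), and Cad, the pyrimidine synthesis enzyme (1.12 ± 0.19, adjusted p = 0.0070). In co-cultured fibroblasts 0 of the 14 were called in limma, 0 had an unadjusted p under 0.05 and their median difference was -0.028. Of all genes, 0.00553% were called there. Between the adenoma pairs 1 of the 14 was higher (Bop1, 0.78 ± 0.12), where 3.65% of all genes were called higher. Of 14 partners and antagonists of Myc, 2 were higher and 6 lower in adenoma cells than in monocultured epithelium. The shares over all genes were 22.5% and 18.5%. Among the lower ones were the antagonist Mxd1 (-2.17 ± 0.17) and the glucose-responsive factor Mlxipl (-4.84 ± 0.57). None of those 14 was called in co-cultured epithelium in limma, where 2 had an unadjusted p under 0.05.

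Of 10 tested genes that work with Cd44 (hyaluronan enzymes, other hyaluronan receptors and linkers to the cell cortex), 2 were higher and 2 lower in adenoma cells than in monocultured epithelium, shares near those over all genes (22.5% and 18.5%). Moesin (Msn), a cortex linker, was 6.52 ± 0.24 higher and the hyaluronan receptor gene Hmmr 3.24 ± 0.60 higher, while Lyve1 was lower by -2.07 ± 0.28. None of the 10 was called in co-cultured epithelium in limma and 0 had an unadjusted p under 0.05, whereas Cd44 itself was called. Between the adenoma pairs Hyal2, a hyaluronidase, was the 1 gene called (0.85 ± 0.19 higher with the T2 tag, limma adjusted p = 0.020), where 7.14% of all genes were called.

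The measured genes varied together to different degrees over the 14 samples, which share cell types and animals, so these Pearson correlations are descriptive. Myc and Cd44 correlated at 0.88, Cd44 and Ephb3 at 0.87 and Myc and Ephb3 at 0.84. Efnb2 ran against these, at -0.71 with Myc, -0.75 with Cd44 and -0.77 with Ephb3. Ephb4 and Efnb1 correlated at -0.80, and Sox9 and Cd44 at 0.39. The genes of most alike pattern were Plcd3, Ccnd1 and Lyar for Myc (0.98, 0.97 and 0.97), Hnrnpk, Gtse1 and Sumo2 for Cd44 (each 0.98) and Fam185a, Nup210 and Tars2 for Sox9 (0.99 each). They were Top3a, Klhdc1 and Zfp568 for Ephb3 (0.98, 0.96 and 0.95), Faxc, Cryab and Zbtb38 for Ephb4 (0.98, 0.98 and 0.97), Aktip, Pfkp and Cyp4f13 for Efnb1 (0.96 each) and Flot1, Megf9 and Iah1 for Efnb2 (0.93, 0.91 and 0.91). Efnb2 thus had the weakest closest match of the 7.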

How the data were processed

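The authors deposited log2 probe set levels, which RMA (version not stated, per the submitters' processing notes) had computed from 16 one-colour whole-transcript arrays from 150 ng of RNA per the labels' protocols. RMA aligns the arrays' distributions, so a shift of most transcripts would be hidden. Technical arrays of P21 and P34 were averaged, leaving 14 samples of 9 animals. Each gene was read from its brightest probe set with 1 symbol, and genes whose highest group mean passed the 30th percentile of probe set means (2.67) were tested. No column was left unmapped. The 5 group means were fitted with limma 3.58.1 in R 4.3.3 (6 means for the T2 tag), with Benjamini-Hochberg adjustment over 18095 genes. Functions were tested on simulated data. The labels give the same animals for co-culture and monoculture, and deviations within an animal correlated at 0.33 to 0.79. The animal as a block, other filters, fits and normalizations, and single samples left out were alternatives. Leaving out P28 with Pl_III, and either adenoma pair, was added after seeing the data. The genes and lists were chosen with earlier results of these data known. Named from each list were up to 4 genes with the smallest p per comparison, and as alike patterns the 3 genes with the highest correlation. Xist and Eif2s3y, which check the labels, and Ephb1, Ephb6, Efnb3, Ldha, Hyal2, Tek, Cldn3 and Esrp1 were named after their values were seen.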

Additional observations from a re-analysis of the deposited data

How the results depend on the processing

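Of 763 alternative values of the 7 genes over the 7 comparisons, 717 kept direction and side of the threshold, 31 lost the call, 4 gained it and 11 changed sign.

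The number of the 7 genes called in co-cultured epithelium was 0 in a fit on the compared groups only, 0 without animals P28 and Pl_III, and 0 to 1 with single samples left out, against 2 as reported. It was 3 with the animal as a replicate block, which raised the difference of responses to 1. Between the adenoma pairs it was 0 to 1 with single animals left out. With at least a 2-fold difference required, 4 genes were called in adenoma cells against co-cultured epithelium and 1 between the adenoma pairs.

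The changes of sign concerned small differences that were never called. In co-cultured epithelium, Efnb2 was -0.031 after cyclic loess, -0.083 to 0.11 with single samples left out and -0.12 without P28 and Pl_III. Ephb4 was -0.11 to 0.31 with single samples left out and -0.030 without P28 and Pl_III, and Sox9 was -0.014 without them. In co-cultured fibroblasts, leaving out single samples gave -0.11 to 0.38 for Myc and -0.69 to 0.022 for Efnb1. The difference of responses of Ephb4 was -0.020 to 0.39 with single samples left out. The cause was not tested.

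Among all genes, 729 were called in co-cultured epithelium, 1370 with the animal as a block and 0 in the fit on the compared groups only. Between the adenoma pairs 1292 were called, and 2162 with the block, which covers no adenoma animal. With the block 619 genes were called for the difference of responses, against 200, and 4 in co-cultured fibroblasts, against 1. Signal over background is unknown here, since no detection calls were used, and the epithelium groups had 2 samples each.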
